A study of Mus musculus with 2 samples.

Results

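Hearts of mouse embryos carry blood in their chambers, and RNA of the whole organ therefore includes RNA of red cell precursors. The genes described here are 33 erythroid genes other than the globins: enzymes of heme synthesis, importers of iron and glycine, proteins of the membrane and its skeleton, blood group and other surface proteins, nuclear regulators, and cytosolic enzymes of the red cell. They were chosen by symbol, and all 33 matched a row of both gene tables through the Ensembl identifier, among 43346 Ensembl genes in all. The tissue was heart of healthy B6NCrl embryos at day 12.5, with males and females pooled, and no allele or treatment was named. There were 2 libraries, called biological replicates 1 and 2, with an input of 10 ng each, a size range above 200 nt and ERCC spike-in RNAs. They form 1 group, so the data hold no contrast between conditions and no p-value is given, and a difference between the libraries is described against the spread of all genes. Gene reads numbered 33480066 in replicate 1 and 30665239 in replicate 2. All 12 listed cardiomyocyte markers were detected, with a summed level of 36703 TPM in replicate 1 and 36878 TPM in replicate 2.

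At this stage the circulating red cells are mostly primitive erythroid cells from the yolk sac, which still have nuclei, while the fetal liver makes the first definitive red cells. Erythroid precursors build hemoglobin from globin chains and heme. Heme is assembled by a chain of enzymes that begins in the mitochondrion with glycine and succinyl-CoA, passes through the cytosol, and ends in the mitochondrion where iron is inserted. The membrane is held by a net of spectrin, tied to the anion exchanger by ankyrin. The transcription factors GATA1, TAL1 and KLF1 act together at many of these genes, with GATA1 and TAL1 often bound side by side at a CTG motif followed by a GATA motif.

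That arrangement was looked for in the promoters, since it links several of the genes whose values follow. RefSeq promoters of the GRCm38.p6 build, 250 bases before to 50 bases after each start, were at hand for 26 of the 33 genes; Slc25a37, Cldn13, Nfe2, Car2, Fech, Ank1 and Slc4a1 had none. On both strands, AGATAA or TGATAA occurred in 15 of 26 promoters (57.7%), against 21% of the promoters of all 27025 genes and 12% of those of detected protein-coding genes. The composite of CTG, then 7 or 8 bases of any kind, then AGATAA or TGATAA occurred in 8 of 26 (30.8%), against 1.15% of all promoters. This spacing was chosen after a wider search, with 6 to 9 bases, had been seen; the wider search also found 8 of 26, against 2.47%. Each composite match is also a match of the GATA motif alone. A KLF-type motif, CCNCNCCC, occurred in 20 of 26 (76.9%), close to the 73.8% of detected protein-coding genes. A match describes letters only and is not evidence of binding.

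The 8 composite matches are shown because they let a reader compare the spacing and the surrounding bases. Each is written in the direction of its gene, with the composite in capitals, and reads TTATCA or TTATCT first where the match lies on the opposite strand. The windows of Hemgn, Icam4 and Rhag are kept to 30 bases because they fall within annotated exons.
Klf1, chr8:84901872-84901927, plus strand, GRCm38.p6: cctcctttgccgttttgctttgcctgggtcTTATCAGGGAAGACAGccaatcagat
Gfi1b, chr2:28622067-28622143, minus strand: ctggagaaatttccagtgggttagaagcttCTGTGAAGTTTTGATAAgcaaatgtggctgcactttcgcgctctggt
Hemgn, chr4:46404184-46404213, minus strand: ctcacacCTGTGCAGTGTGATAAagaaagt
Rhag, chr17:40811112-40811141, plus strand: ctgctcTTATCAACACTATACAGcctgtgg
Icam4, chr9:21029383-21029412, plus strand: gccttcTTATCTCCTGCGGCCAGcctaaac
Kel, chr6:41704346-41704422, minus strand: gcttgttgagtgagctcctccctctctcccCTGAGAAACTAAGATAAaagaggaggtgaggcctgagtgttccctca
Ermap, chr4:119190016-119190092, minus strand: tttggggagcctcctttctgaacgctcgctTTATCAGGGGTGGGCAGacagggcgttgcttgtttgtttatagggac
Epb42, chr2:121037073-121037127, minus strand: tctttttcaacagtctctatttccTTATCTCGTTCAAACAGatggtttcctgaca
The spacer was 7 bases in Klf1 and Hemgn and 8 bases in the other 6. The match ended 8 bases before the start in Hemgn, 15 in Rhag, 27 in Icam4, 51 in Kel and Ermap, 65 in Klf1, 115 in Gfi1b and 210 in Epb42. Alas2 held a GATA motif alone, 81 bases before its start, shown in capitals.
Alas2, chrX:150547301-150547366, plus strand, GRCm38.p6: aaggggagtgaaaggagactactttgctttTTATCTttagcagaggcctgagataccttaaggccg

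All 33 genes were detected, here meaning 1 TPM or more in both libraries, where 57.5% of nuclear protein-coding genes reached that level. TPM, a share of all transcripts, is corrected for length, which allows levels of different genes to be compared. The median level was 20.8 TPM, beside 18.9 TPM for all detected protein-coding genes. Of the 33 genes, 9 exceeded 50 TPM, 16 lay from 10 to 50 TPM and 8 lay below 10 TPM. Their summed TPM was 0.134 ± 0.00769% of the TPM of all genes (SD, n = 2). The 7 globin genes held 7.51 ± 0.55%, or 56.0 ± 0.891 times as much. Of the mean sum of 1232 TPM for the 33 genes, 764 TPM belonged to 13 genes that many cell types express. The sum is therefore not a measure of red cell RNA alone. Levels ran from 3.9 ± 1.0 TPM for Gfi1b to 154 ± 9.98 TPM for Car2. In the order of the levels, 11 of the 32 neighbouring pairs had ranges over the 2 libraries that did not overlap and 21 overlapped, so the order is firm in its broad steps and not gene by gene. The lowest read number of any of these genes was 71.4, for Icam4 in replicate 2.

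**Figure D1:**
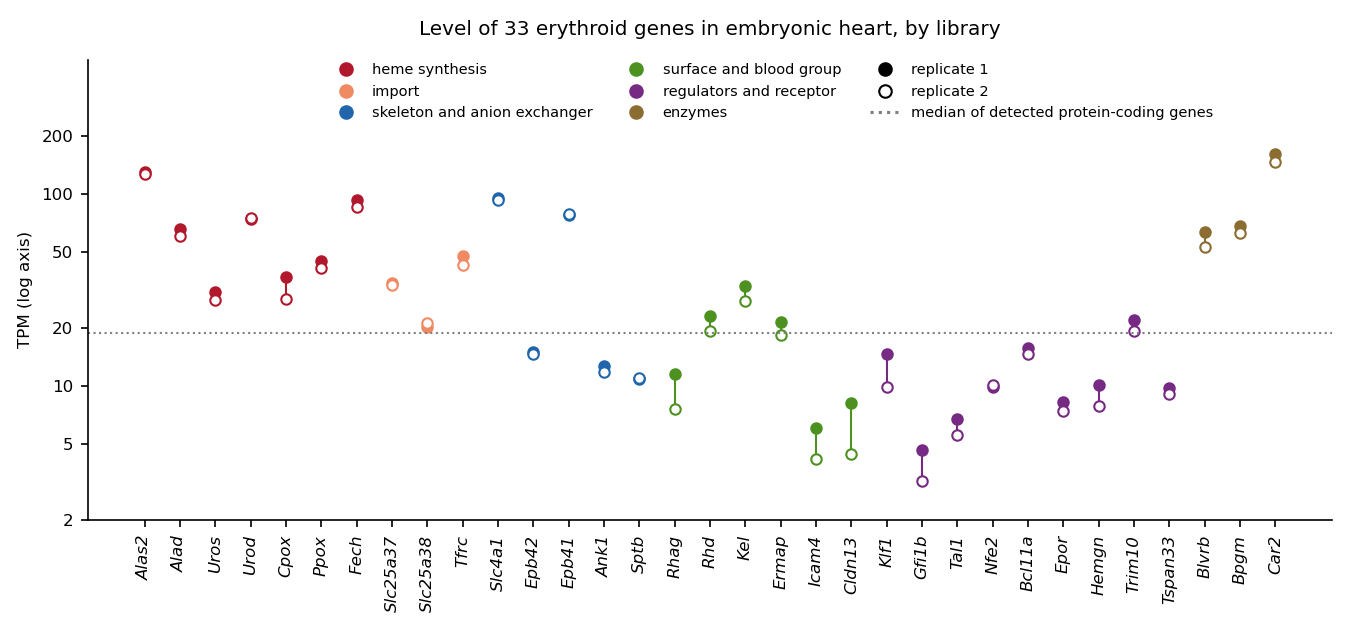
TPM of each erythroid gene on a log axis, with filled points for replicate 1, open points for replicate 2 and colours for the functional groups; the dotted line is the median of detected protein-coding genes, 18.9 TPM. All genes of heme synthesis, import and the cytosolic enzymes lie above that line, while the regulators other than Trim10 lie below it.

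The 7 heme genes described here were all expressed, and their levels were uneven along the chain. Alas2 (ENSMUSG00000025270.9; GRCm38 chromosome X, 150547375 to 150570638), the erythroid aminolevulinate synthase that opens the pathway, stood at 129 TPM in replicate 1 and 127 TPM in replicate 2. Alad, which joins aminolevulinate into porphobilinogen, had 65.4 and 60.5 TPM. Uros, which closes the ring, was the lowest of the 7 at 30.7 and 28.1 TPM. Urod, which trims the side chains of that ring in the cytosol, had 73.9 and 74.7 TPM, 2.53 ± 0.173 times the level of Uros. The oxidases that follow, Cpox and Ppox, lay below Urod and the last step above it. Cpox, the coproporphyrinogen oxidase, had 36.8 and 28.4 TPM. Ppox, the next oxidase, had 44.6 and 41.3 TPM. Fech, which inserts iron, had 92.6 and 85.4 TPM. The steps at either end, Alas2 and Fech, were thus the highest of the 7 in both libraries.

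Alas2 and its housekeeping relative Alas1, which serves heme synthesis in other cells, were both present. Alas1 had 65.4 TPM in replicate 1 and 70.2 TPM in replicate 2, and Alas2 was 1.89 ± 0.124 times as high. Slc25a37 (mitoferrin-1), the mitochondrial iron importer of red cells, had 34.5 and 33.5 TPM and exceeded the related Slc25a28 by 4.73 ± 0.521 times. Slc25a38, which brings glycine into the mitochondrion, had 20.3 and 21.3 TPM, against 213 and 207 TPM for Slc25a39, a mitochondrial carrier of glutathione found in many cells. Tfrc, the transferrin receptor that all dividing cells use to take up iron, had 47.5 and 42.5 TPM. Its relative Tfr2 had 0.85 and 0.40 TPM on 57 and 24 reads, below the detection level in both libraries.

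Both ends of iron control by RNA elements were represented in the reference transcripts. Iron regulatory proteins bind a hairpin with the loop CAGTGN; placed before the coding region it blocks translation, and placed after it the transcript is stabilised. The search asked for a C, a fully paired upper stem with G-T pairs allowed, and a loop ending in A, C or T. Elements outside that pattern would be missed. By this rule Alas2 held 1 element before the coding region and Tfrc held 4 after it, and they are shown because the same loop stands in both. The sequences are from the GENCODE M21 transcripts (GRCm38), each 27 bases long, with the loop in capitals and written in the direction of the transcript.
Alas2, chrX:150547459-150547485, plus strand: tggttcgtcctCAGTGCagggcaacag
Tfrc element 1, chr16:32631220-32631246, plus strand: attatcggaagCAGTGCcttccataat
Tfrc element 2, chr16:32631599-32631625, plus strand: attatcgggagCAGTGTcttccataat
Tfrc element 3, chr16:32631664-32631690, plus strand: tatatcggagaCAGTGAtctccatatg
Tfrc element 4, chr16:32631711-32631737, plus strand: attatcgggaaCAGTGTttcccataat
In Alas2 the element lay in Alas2-201 and Alas2-202, which held 72.7 ± 1.23% and 23.3 ± 1.28% of the gene's TPM. In Tfrc all 4 lay in the coding transcript Tfrc-201, with 57.5 ± 0.0949% of the TPM, and in Tfrc-204, a retained-intron transcript with 17.6 ± 2.81%. Levels of Ireb2 and Aco1, which encode the iron regulatory proteins, were 28.7 ± 0.339 and 27.6 ± 0.75 TPM.

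The membrane skeleton genes fell into a high pair and a low trio. Slc4a1, the anion exchanger that anchors the skeleton, had 95.1 TPM in replicate 1 and 92.4 TPM in replicate 2. Epb41, which joins spectrin to actin and is made in many cell types, had 77.2 and 78.9 TPM. Epb42, which stabilises the link of ankyrin to the anion exchanger, had 14.9 and 14.6 TPM. Ank1, the ankyrin itself, had 12.8 and 11.8 TPM, and Sptb, the beta spectrin of red cells, had 10.9 and 11.0 TPM. The widest difference between the libraries among the 5 genes was that of Ank1, 1.08-fold. Relatives used by other cells were higher for the spectrins and ankyrins: Sptbn1 exceeded Sptb by 14.1 ± 0.222 times, and Ank3 exceeded Ank1 by 4.19 ± 0.39 times. For the anion exchanger the erythroid gene led, at 3.49 ± 0.622 times Slc4a2 and 3.39 ± 0.271 times Slc4a3, a form known from heart muscle.

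**Figure D2:**
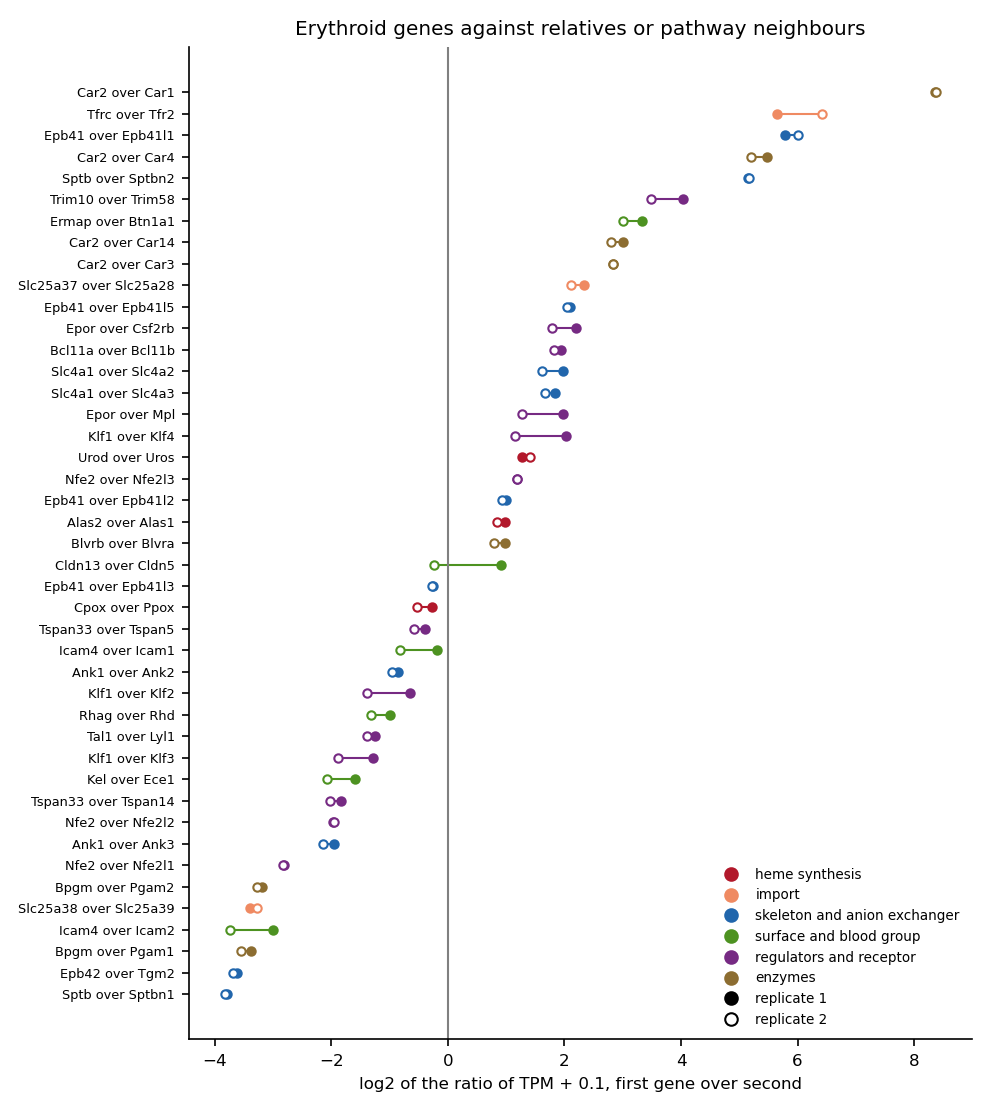
Log2 ratio of each pair (TPM + 0.1), first gene over second, for the 43 of 47 pairs whose second gene had more than 3 reads in both libraries; filled points are replicate 1 and open points replicate 2. Points to the right of 0 mean the first, erythroid gene was higher, and Cldn13 over Cldn5 is the pair that crosses 0.

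Transcript estimates separated forms of Ank1 and Sptb that are known from different tissues. Ank1 (ENSMUSG00000031543.14; chromosome 8, 22974844 to 23150497) encodes long ankyrins of the red cell and also, from an internal promoter, small membrane proteins of the sarcoplasmic reticulum of striated muscle. Its transcripts with a coding region under 600 bases had 7.95 TPM in replicate 1 and 7.31 TPM in replicate 2. Those with a coding region over 5000 bases had 4.54 and 4.31 TPM. The short forms therefore made up 62.2 ± 0.248% of the gene's TPM but 24.2 ± 0.355% of its reads, because a long transcript yields more reads per molecule. The leading short transcript, Ank1-208, encodes 155 residues, and the leading long one, Ank1-207, encodes 1878. Sptb-202, which encodes the 2137-residue form known from red cells, held 55.4 ± 2.32% of the TPM of Sptb. Sptb-201, which encodes a 2329-residue form with a longer end known from muscle and brain, held 44.6 ± 2.32%. The share of the longer Sptb form was 42.9% in replicate 1 and 46.2% in replicate 2. So the summed level of Ank1 counts transcripts of the muscle type together with those of the red cell type, and the long forms alone, at 4.43 ± 0.163 TPM, would lie between Gfi1b and Icam4 in the order of levels.

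**Figure D3:**
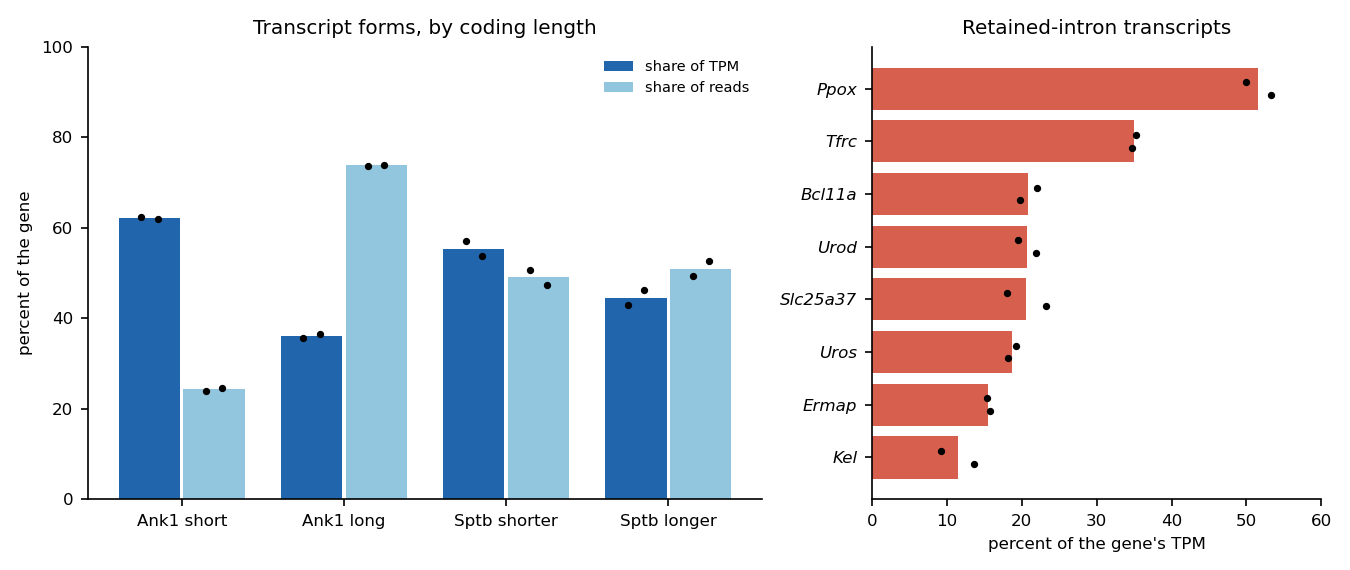
Left, shares of the TPM and of the reads of Ank1 and Sptb held by forms of different coding length. Right, share of TPM held by retained-intron transcripts in the 8 genes at 5% or more; bars are means and dots are the 2 libraries, and Ppox has the highest share.

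Transcripts annotated with a retained intron held 5% or more of TPM in 8 of the 33 genes (24.2%), beside 25.3% of 12344 detected protein-coding genes. They made up 51.6 ± 2.37% in Ppox, 35 ± 0.356% in Tfrc, 20.9 ± 1.62% in Bcl11a, 20.7 ± 1.68% in Urod and 20.6 ± 3.62% in Slc25a37. Uros, Ermap and Kel had 11.4% to 18.7%. Ppox shares 17.5% of its exon bases with B4galt3 on the opposite strand, which had 40.3 and 45.5 TPM, and the strand of the reads is not given, so its level and these shares are uncertain. The part of B4galt3 in them was not tested. In Epb42, noncoding processed transcripts held 60.6 ± 3.12% of TPM. In Epb41 the leading transcript, Epb41-215, was itself annotated as noncoding, at 34.5 ± 2.12%. Of 22 genes with at least 2 transcripts at 1% or more, 20 had the same leading transcript in both libraries (90.9%, beside 91.4% of all such genes). The other 2 were Uros, which changed from Uros-204 to Uros-203, and Tspan33, where Tspan33-201 held 79.6% in replicate 1 and 45.5% in replicate 2.

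Surface and blood group genes were of moderate to low level. Kel, the Kell blood group peptidase, led by summed level with 33.1 TPM in replicate 1 and 27.7 TPM in replicate 2. Its transcript of 713 residues, Kel-201, held 90.5% of its reads but had 18.4 and 16.6 TPM. That is below the 22.7 and 19.2 TPM of Rhd-201, so the lead rests on shorter Kel transcripts with few reads. Rhd, the Rhesus protein, had 23.0 and 19.2 TPM, and Rhag, the Rhesus-associated ammonia channel, 11.6 and 7.61 TPM. Ermap, a butyrophilin-like membrane protein, had 21.5 and 18.4 TPM. Cldn13, a claudin of mouse erythroid cells, had 8.18 and 4.40 TPM. Icam4, the Landsteiner-Wiener adhesion molecule, had 6.04 and 4.14 TPM, but its exons lie wholly within those of an antisense gene, Gm47079. With the strand of the reads not given, the level of Icam4 and its difference between the libraries are uncertain. Each of the 6 genes was lower in replicate 2. Relatives of Rhag that are typical of other epithelia, Rhbg and Rhcg, had 7 reads or fewer in each library, and no fold is given for them.

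Regulators were the lowest group, with a median of 9.39 TPM. Klf1 (ENSMUSG00000054191.7; chromosome 8, 84901928 to 84905291), the master activator of globin and heme genes, had 14.7 TPM in replicate 1 and 9.82 TPM in replicate 2. Gfi1b, a repressor shared with megakaryocytes, had 4.61 and 3.19 TPM, and Tal1, the partner of GATA1, had 6.71 and 5.55 TPM. Nfe2, which acts at the globin locus and in megakaryocytes, had 9.92 and 10.1 TPM. Bcl11a, the repressor that silences fetal globin in adult cells and is also active in lymphocytes and neurons, had 15.7 and 14.7 TPM. Its leading transcript in both libraries, Bcl11a-204, encodes a short form of 191 residues and held 35.1 ± 2.46% of TPM. The transcript for the extra-long protein of 835 residues held 29.1 ± 1.07% of TPM and that for the long protein of 773 residues held 13.6 ± 0.213%. Of the reads of Bcl11a, the extra-long form held 44.8 ± 0.169% and the short form 12.9 ± 1.33%, so the short form leads by TPM only. Epor, the erythropoietin receptor, had 8.27 and 7.39 TPM. Hemgn, a nuclear protein of blood precursors, had 10.1 and 7.86 TPM. Trim10, a ligase-like protein of terminal erythroid cells, had 22.1 and 19.2 TPM, and the tetraspanin Tspan33 had 9.71 and 9.07 TPM. Among relatives, Klf2 and Klf3 were higher than Klf1 in both libraries, at 24.4 ± 1.94 and 36.3 ± 0.453 TPM, and Lyl1 exceeded Tal1 by 2.52 ± 0.179 times.

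The cytosolic enzymes were high. Car2, the carbonic anhydrase that lets red cells carry CO2 as bicarbonate, had 161 TPM in replicate 1 and 146 TPM in replicate 2. The adult red cell form Car1 had 0.39 and 0.34 TPM, on 10 and 4 reads. Bpgm, which makes the bisphosphoglycerate that loosens oxygen from hemoglobin, had 68.4 and 62.2 TPM. Its glycolytic relatives were far higher, Pgam1 at 718 ± 11.9 TPM and the muscle form Pgam2 at 611 ± 14.9 TPM. Blvrb, a biliverdin and flavin reductase abundant in red cells, had 63.1 and 52.6 TPM, 1.85 ± 0.175 times Blvra. Over all 47 pairs of an erythroid gene with a relative or pathway neighbour, the first gene was higher in both libraries in 26, the second in 20, and 1 pair crossed.

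Replicate 2 had lower levels of most of the 33 genes, and the shortfall was uneven among the groups. Of the 33 genes, 28 were lower in replicate 2 (84.8%), where 42.0% of all 12117 tested genes were. A gene was tested with a mean of 50 reads or more and 1 TPM or more in both libraries. Replicate 2 was set over replicate 1 on a log2 scale after 0.1 TPM was added, so that differences of weakly expressed genes are understated, and the median of these log2 ratios was -0.13, beside 0.02 for all tested genes. Of the 33 genes, 8 were 1.2-fold or more lower in replicate 2, against a background of 3.99%, and 0 were higher by as much, against 5.19%. The 15 genes restricted to red cells had a median log2 ratio of -0.23, with 5 lower by 1.2-fold or more. The 5 genes shared with megakaryocytes had -0.10, with 2 so lowered, and the 13 genes of many cell types -0.12, with 1. In bulk RNA, fewer red cells, less RNA per red cell and less RNA from other cells cannot be told apart.

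The 8 genes were Cldn13, Rhag, Klf1, Gfi1b, Cpox, Hemgn, Tal1 and, with the uncertainty of its antisense overlap, Icam4. As ratios of TPM + 0.1, Cldn13 was 1.84-fold lower in replicate 2, Rhag 1.51-fold, Klf1 1.49-fold, Icam4 1.45-fold, Gfi1b 1.43-fold, Cpox 1.29-fold, Hemgn 1.28-fold and Tal1 1.21-fold. Just short of the line were Blvrb, Kel and Rhd, each with a log2 ratio of -0.26. An exact binomial interval of the read ratio, at 95% and for counting error only, lay below 0 in 20 of the 33 genes, against 10.9% of tested genes. It lay above 0 in 0 genes, against 12.7%, and held 0 in 13. For Cldn13, on 187 and 91 reads, it ran from -1.29 to -0.54 on the log2 scale, and for Klf1, on 497 and 301 reads, from -0.81 to -0.39.

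**Figure D4:**
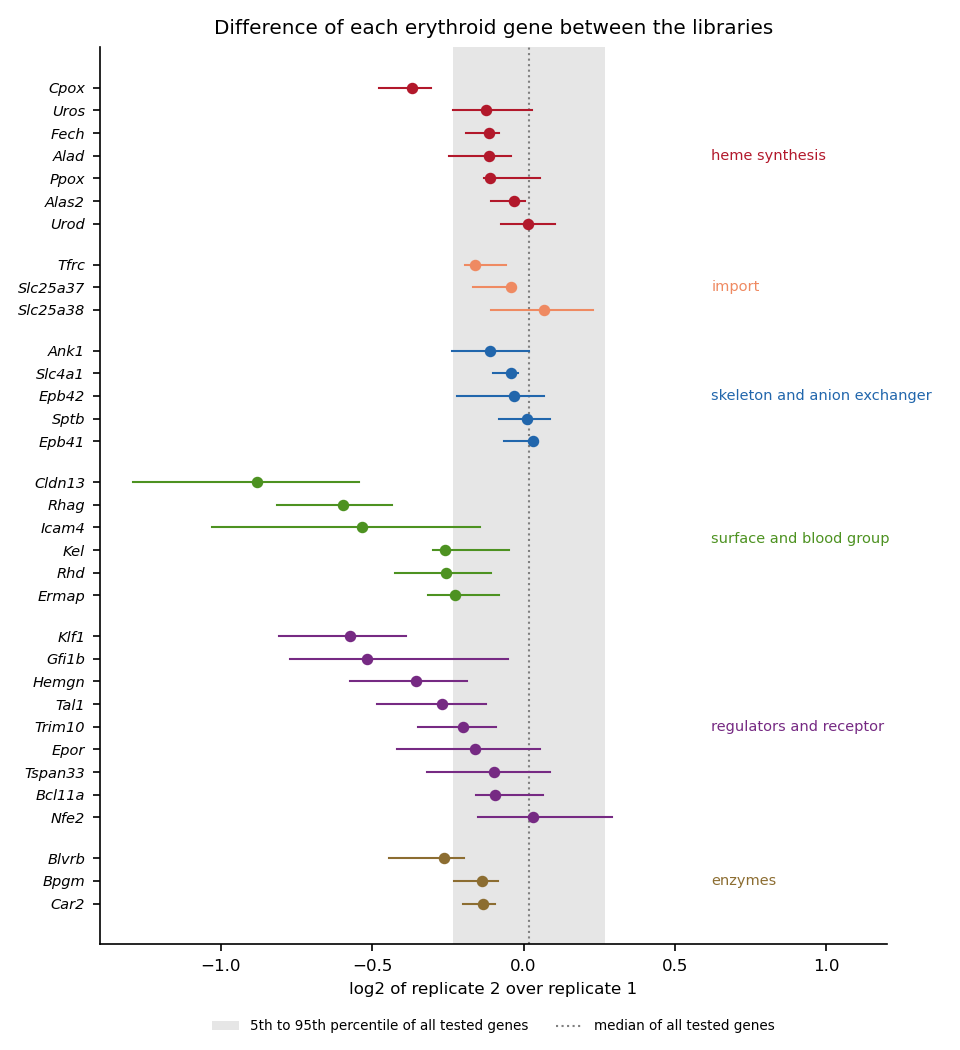
Log2 ratio of replicate 2 over replicate 1 for each erythroid gene (points, TPM + 0.1), with lines for the exact 95% counting interval of the read ratio. The grey band spans the 5th to 95th percentile of all tested genes, -0.23 to 0.27; 11 genes, 5 surface genes and 4 regulators among them, lie left of it, and the 5 skeleton genes lie inside it.

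By group, the surface genes had a median log2 ratio of -0.40 with 6 of 6 lower, and the regulators -0.20 with 8 of 9 lower, Nfe2 being the exception. The cytosolic enzymes had -0.14 with 3 of 3 lower and the heme enzymes -0.11 with 6 of 7 lower, Urod being the exception. The import genes had -0.04 and the skeleton genes -0.03. Thus 7 of the 8 genes past 1.2-fold came from the 15 surface and regulator genes, and 1, Cpox, from the 15 genes of heme synthesis, import and skeleton. Alas2 and Slc4a1, which encode abundant products of the red cell, had log2 ratios of -0.03 and -0.04. The 7 globins lay between, all lower in replicate 2, with log2 ratios from -0.19 to -0.08 and a median of -0.16. In the promoters, all 7 of the 8 lower genes that had a RefSeq promoter held the GATA motif, and 5 held the composite. Of the other 19 genes with a promoter, 8 and 3 did. Among tested genes outside the described set, 3 of 72 with the composite were 1.2-fold or more lower (4.17%) and 4 were higher (5.56%). With the GATA motif, 44 of 1124 were lower (3.91%) and 61 higher (5.43%). These shares lay close to the 3.99% and 5.19% of all tested genes. With the wider composite of 6 to 9 bases, 8 of 130 genes outside the set were lower (6.15%) and 6 higher (4.62%). The part of the motifs in the lower values was not tested.

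**Figure D5:**
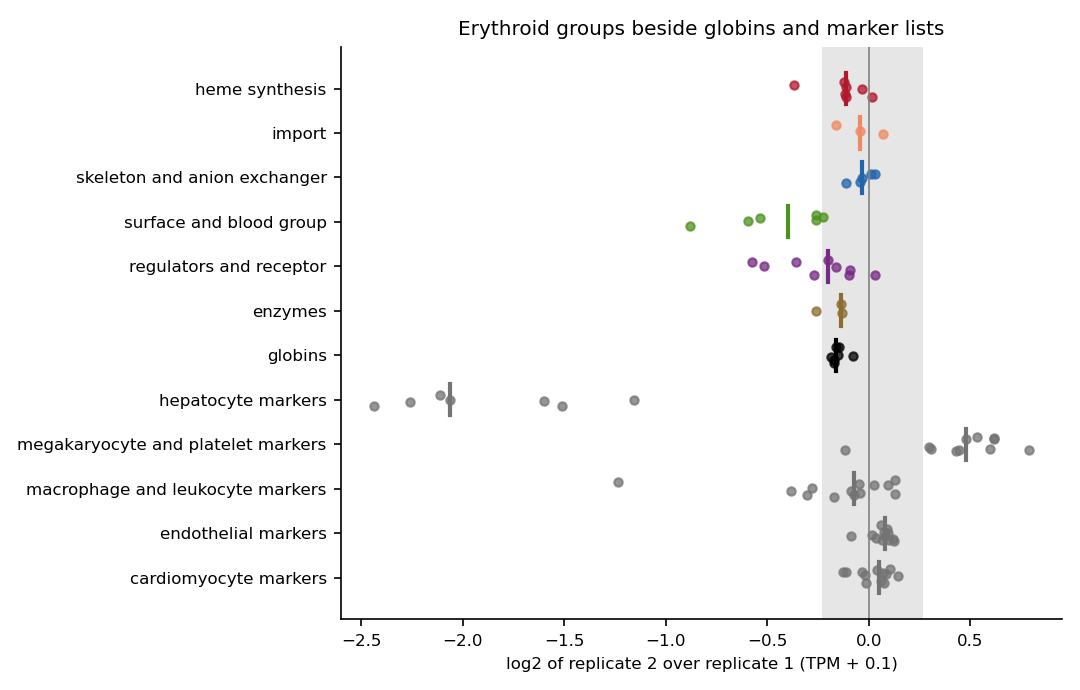
Log2 ratio of replicate 2 over replicate 1 for each tested gene of the erythroid groups, the globins and the marker lists of other cell types, with a bar at each median and the 5th to 95th percentile band of all tested genes in grey. Hepatocyte markers lie far to the left and megakaryocyte markers to the right of the erythroid groups.

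Markers of other cell types also differed between the libraries. All 20 hepatocyte markers were lower in replicate 2, where 42.0% of all tested genes were, but only 8 of the 20 were detected. The 7 that were tested were all lower by 1.2-fold or more, against 3.99% of all tested genes. The 20 markers summed to 290 TPM in replicate 1 and 76.8 TPM in replicate 2. Afp had 99.3 and 18.2 TPM, Alb 9.23 and 1.85 TPM, and Apoc3 had 1 read in replicate 1 and 0 in replicate 2. Megakaryocyte and platelet markers went the other way, with 11 of 12 higher in replicate 2, Vwf being the exception, and a summed level of 124 and 159 TPM. Of the 11 that were tested, 10 were higher by 1.2-fold or more, against 5.19% of all tested genes. The summed macrophage and leukocyte markers were 158 and 156 TPM, of which Lyz2 held 73.8 and 80.6 TPM. Of the 13 tested markers of that list, 9 were lower in replicate 2, 4 of them by 1.2-fold or more, and 0 were higher by as much. These 4 were the complement genes C1qa, at 9.13 and 6.97 TPM, and C1qc, at 9.75 and 7.89 TPM, the lysosomal gene Cd68, at 4.25 and 3.48 TPM, and the granulocyte gene Mpo, at 5.48 and 2.27 TPM. For Cd68, on 91 and 80 reads, the counting interval of the read ratio held 0, from -0.51 to 0.39 on the log2 scale. Cd3e was at 0 in both libraries. Endothelial markers summed to 850 and 894 TPM. The fetal liver is the organ where hepatocytes and definitive erythroid precursors lie together. The part of these cell types in the lower erythroid values was not tested.

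Other genes of the same pathways, listed by role and outside the 33, were mostly close between the libraries. Of 29 tested heme and iron genes, 0 were 1.2-fold lower, against 3.99% of all tested genes, and 2 were higher, Slc11a2 and Flvcr1, against 5.19%. The counting interval of the read ratio held 0 for both, and Slc11a2 had 1034 reads in replicate 1 and 929 in replicate 2. The list was led by the ferritins Ftl1 and Fth1, at 3361 ± 84 and 2023 ± 103 TPM, followed by Slc25a39, Glrx5 and Tmem14c. Of 35 regulators, 3 were lower, against 3.99% of all tested genes, and 2 higher, against 5.19%. The lower ones were Gata1, at 5.26 and 3.56 TPM, Ikzf1, at 2.71 and 1.77 TPM, and Foxo3, at 4.76 and 3.63 TPM. The higher ones were Stat5a and Trim58, but for Trim58, on 62 and 73 reads, the counting interval held 0. Of 18 red cell enzymes, 1 was lower, against 3.99% of all tested genes. It was Pklr, the pyruvate kinase of liver and red cells, at 2.24 and 1.40 TPM. These 3 lists had median log2 ratios of -0.01, 0.05 and 0.02 in that order.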

How the data were processed

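RNA of 2 heart libraries was quantified per gene and per transcript. Per the file headers and deposited notes, the build was mm10 with GENCODE M4. The sources used here do not give the aligner, the quantifier, the strand or any removal of ribosomal RNA. Per the labels' protocols, a mirVana kit served for extraction, and a SMARTer low-input manual is cited. The deposited expected counts are estimated reads of a gene, with shared reads divided. The deposited TPM values are corrected for length and scaled to all features, ERCC RNAs among them. The deposited FPKM values scale reads by length and library size. The deposited percent values give each transcript's share of its gene, and other deposited columns give posterior means and SDs.

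Names, types and coordinates came from GENCODE M21, which matched 42462 of 43346 gene identifiers. The 33 genes, the companion and marker lists, the 47 pairs and the alternatives were chosen with earlier results of these data known. Some companion genes and pairs are not reported here. All 33 genes are named; companion genes named for a difference between libraries were picked with that difference in view. Rounded expected counts gave TMM factors (edgeR 4.0.16, R 4.3.3) and DESeq2 1.42.0 size factors, used as alternatives only. Python 3.11.15 with numpy 2.4.6, pandas 2.3.3 and scipy 1.17.1 did the rest, and matplotlib 3.10.9 drew the plots. Nothing shows whether the libraries came from separate litters, so their spread may be technical in part.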

Additional observations from a re-analysis of the deposited data

How the results depend on the processing

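Of 55 alternative values for the 8 summary results, 49 stayed within their limits and 6 moved, with no reversal. The limit was a factor of 1.5 for counts and the SD over the libraries for the median level and the share. For the median log2 ratio of -0.13 it was 0.108, the robust SD over all tested genes, which is wide. Some of the 49 could not move, such as detection at 0.5 TPM or pairs by FPKM, so the tally does not measure robustness. The median level rose from 20.8 to 25.7 TPM with TPM rescaled to genes without globins and mitochondrial genes. With a mean of 200 reads or more, which leaves 30 genes tested, 5 were at least 1.2-fold lower in replicate 2, against 2.23% of all genes so tested. At a fold of 1.1 the lower genes numbered 15, against 10.9%. At a fold of 1.5 they numbered 2, Cldn13 and Rhag, against 0.536%. The share of TPM was 0.152% without globins and mitochondrial genes and 0.205% from expected counts. In 9 settings of pseudocount, unit, scaling or no read filter, from 2.69% to 4.3% of all tested genes were lower by 1.2-fold. Of the 33 genes, 6 were lower by that fold in each setting: Cldn13, Cpox, Hemgn, Klf1, Rhag and Icam4, the last uncertain for its antisense overlap. Gfi1b was not among them with posterior mean TPM, and Tal1 with a pseudocount of 1 or posterior mean TPM. Scaling by ERCC spike-in reads gave 10 lower genes, against 3.98% of all tested genes, and 0 higher, against 2.72%. The median log2 ratio was then -0.17, with all genes at -0.02. From either library alone the median level was 19.2 to 22.1 TPM and the share 0.129% to 0.140%. No paired analysis was possible because there is 1 group. Depth limits Icam4, Cldn13 and Gfi1b most, with 71.4 to 187 reads.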

Other observations

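The composite of CTG and a GATA motif also occurred in 72 tested genes outside the 33. Of those, 3 were 1.2-fold or more lower in replicate 2 (4.17%) and 4 were higher (5.56%), close to the shares of all tested genes. With the wider spacing of 6 to 9 bases it occurred in 130 such genes, of which 8 were lower (6.15%) and 6 higher (4.62%). The GATA motif alone occurred in 1124 such genes, of which 44 were lower (3.91%).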
